A study of Mus musculus with 16 samples.

Results

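The UDP-glucuronosyltransferase 2 (Ugt2) family of mouse liver was followed across 4 groups of livers. Its members were the rows of the deposited expression table whose mouse Ensembl gene ID carries the symbol Ugt2a3, Ugt2b1, Ugt2b5, Ugt2b34, Ugt2b35, Ugt2b36, Ugt2b37 or Ugt2b38. These were 8 of the 35275 gene IDs in the table, and the rule that picks them reads symbols only; the family was chosen with earlier results of these data known. The study sequenced liver RNA of mice that were wild type (WT) or carried a liver-specific deletion of Zfp36l1 (labelled L1 LKO, here LKO), fed either a control diet (Ctrl) or a diet containing ethanol (EtOH). Each of the 4 groups, WT control, WT ethanol, LKO control and LKO ethanol, held 4 libraries, numbered here only to name them. The Cre line behind the deletion, the strain, sex and age of the mice, and the dose and length of the ethanol feeding are not given in the sources used here. Values are FPKM, read counts scaled to the gene's length and to the library's total reads.

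UDP-glucuronosyltransferases sit in the membrane of the endoplasmic reticulum and join glucuronic acid, taken from UDP-glucuronic acid, to small lipid-soluble molecules. The glucuronides formed are water-soluble and leave the hepatocyte in bile or blood through efflux pumps. The Ugt2 enzymes conjugate steroid hormones, bile acids and drugs such as opioids, and hepatocytes are a main site of their expression. Zfp36l1 encodes a zinc finger protein that binds AU-rich elements after the stop codon of mRNAs and promotes their decay.

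All 8 genes lie in 1 cluster on chromosome 5 of GRCm38, between the start of Ugt2b34 at 86889767 and the end of Ugt2b38 at 87424203. In chromosome order they are Ugt2b34, Ugt2b1, Ugt2b35, Ugt2b36, Ugt2b5, Ugt2b37, Ugt2a3 and Ugt2b38. Ugt2b35 is the member on the plus strand, and the other 7 are on the minus strand. Each has 6 exons in the GENCODE M21 transcript used here and a coding sequence of 1590 to 1605 bases. Ugt2b5, Ugt2b37 and Ugt2b38 are close copies. The coding sequence of Ugt2b5 was 97.0% identical to that of Ugt2b38, with 99.3% identity in the first coding exon, and 94.7% identical to that of Ugt2b37. Ugt2b5 shared 433 windows of 100 bases without a mismatch with Ugt2b38 and 19 with Ugt2b37, at 93.0% identity to the latter in the first coding exon. Low counts of Ugt2b38, and to a smaller extent of Ugt2b37, may therefore include reads of the far more abundant Ugt2b5, and their values are uncertain. Ugt2b5 and Ugt2b36 shared none at 88.4% coding identity. Ugt2a3 was the most distant member, at 68.2 to 71.0% coding identity to the others.

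The promoters are shown because the members stand next to each other and share 1 short pattern near their start. Among all words made of 4 bases, a gap of 0 to 8 bases and 4 more bases, searched on the gene's strand, 1 was present in all 8 RefSeq promoters (GRCm38.p6, 250 bases before to 50 bases after the gene's start). It reads GTTANNNNTTAA. In the windows of 80 bases below, written in the direction of the gene, the capitals mark it. The word was picked for being shared, and the promoters are related copies, so the sharing is a description. It occurred in 138 of 32851 promoters of the same length (0.42%) on the gene's strand and in 246 (0.749%) on either strand. No binding was measured here.
Ugt2b34, chr5:86906961-86907040, minus strand: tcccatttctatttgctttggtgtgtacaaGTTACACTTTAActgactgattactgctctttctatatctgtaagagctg
Ugt2b1, chr5:86926543-86926622, minus strand: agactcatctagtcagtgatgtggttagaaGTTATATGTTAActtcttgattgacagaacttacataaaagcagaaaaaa
Ugt2b35, chr5:87000760-87000839, plus strand: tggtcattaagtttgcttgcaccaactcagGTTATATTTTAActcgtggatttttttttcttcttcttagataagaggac
Ugt2b36, chr5:87092570-87092649, minus strand: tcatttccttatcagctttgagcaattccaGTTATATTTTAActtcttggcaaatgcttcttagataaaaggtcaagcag
Ugt2b5, chr5:87140352-87140431, minus strand: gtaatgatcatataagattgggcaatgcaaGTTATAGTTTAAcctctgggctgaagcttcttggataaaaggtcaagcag
Ugt2b37, chr5:87254817-87254896, minus strand: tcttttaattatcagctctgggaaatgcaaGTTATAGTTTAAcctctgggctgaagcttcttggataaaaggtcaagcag
Ugt2a3, chr5:87337200-87337279, minus strand: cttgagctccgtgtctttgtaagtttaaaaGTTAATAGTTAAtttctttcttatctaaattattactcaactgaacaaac
Ugt2b38, chr5:87424218-87424297, minus strand: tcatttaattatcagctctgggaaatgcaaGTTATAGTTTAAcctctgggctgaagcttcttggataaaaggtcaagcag
The word started 54 bases (Ugt2a3) to 89 bases (Ugt2b1) before the gene's start. Ugt2b35 and Ugt2b36 carried the same 12 letters, and so did Ugt2b5, Ugt2b37 and Ugt2b38. The promoters of Ugt2b37 and Ugt2b38 were 95.8% identical, and that of Ugt2b5 was 90.0% identical to that of Ugt2b38. The promoter of Ugt2b35 was 68.0% identical to that of Ugt2b5.

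Because Zfp36l1 protein binds AU-rich elements, the transcripts were also searched, on the sense strand after the stop codon, for the heptamer TATTTAT. It was found in Ugt2b5 (1 copy), Ugt2b34 (2 copies) and Ugt2b35 (2 copies), and not in the transcripts used for the other 5. The first copies, with the heptamer in capitals, read as follows in DNA letters.
Ugt2b5, from base 47 after the stop codon: ctcattctTATTTATgaaccacc
Ugt2b34, from base 756 after the stop codon: tttaacttTATTTATtgcagact
Ugt2b35, from base 114 after the stop codon: tgtgtataTATTTATatatatat
Among expressed genes with a similar length after the stop codon, the share with at least 1 copy was 7.02% for the length of Ugt2b5, 31.9% for that of Ugt2b34 and 34.9% for that of Ugt2b35. It was 6.62 to 21.6% for the lengths of the 5 members without a copy, and 26.9% over all 10225 genes searched. A match of letters is no measured site. The transcript used for Ugt2b35 has 1737 bases after the stop codon, whereas the gene length behind its deposited FPKM was 1758 bases in all, so the authors' gene model for it was shorter.

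Zfp36l1 itself was 9.3 to 25.5 FPKM in the 8 WT libraries and 0.572 to 1.76 FPKM in the 8 LKO libraries, so the genotype labels held in all 16. Read totals worked out from the FPKM were 19069903 to 24768569 in 15 libraries and 9890475 in WT ethanol library 2. That library stood apart. Mitochondrial transcripts took 22.5% of its reads against 3.64 to 6.97% elsewhere, and its median Spearman correlation with the others was 0.691 against 0.905 to 0.951. The summed FPKM of 5 erythroid markers was 2160 in it against 100.3 to 286.1, that of 5 stellate cell markers 15.8 against 47.9 to 167, and that of 5 sinusoidal endothelial markers 12.1 against 28.2 to 87.4. The summed FPKM of 6 hepatocyte markers was high in every library, which fits the labelled tissue. Results that change without WT ethanol library 2 are given with and without it. Apart from WT ethanol library 2, which was not placed, the libraries of every group also fell into 2 sets (1 and 2 against 3 and 4) along a component holding 40.1% of the variance within groups. The labels name no batch for this split, and within-set values are given beside the members' results, with 1 WT ethanol library (library 1) in the first set.

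Over the 8 control diet libraries, Ugt2b5 was the most abundant member at 360.6 ± 82 FPKM (SD, n = 8), followed by Ugt2b36 at 242.1 ± 49.8 FPKM. Ugt2a3 (129 ± 17.3 FPKM), Ugt2b34 (117.8 ± 15.3 FPKM) and Ugt2b1 (100.3 ± 21.1 FPKM) came next. Ugt2b35 had 32.2 ± 5.67 FPKM, Ugt2b37 2.75 ± 1.47 FPKM and Ugt2b38 0.404 ± 0.658 FPKM. The ranges of Ugt2b5 and Ugt2b36 overlapped, as did those of Ugt2a3, Ugt2b34 and Ugt2b1 with each other and those of Ugt2b37 and Ugt2b38. FPKM are per length, so these levels can be set side by side across genes, within the limits of the gene models. The gene length behind the FPKM of Ugt2b34 was 4312 bases. Its transcript used here has 1599 coding bases and 1435 after the stop codon. A longer length gives a lower FPKM, so its place in this order depends on the gene model. The summed FPKM of the 8 members was 945.2 ± 191.4 in WT control livers, 559.3 ± 311.4 in WT ethanol livers (668.8 ± 271.2 without library 2), 1025 ± 75.5 in LKO control livers and 899.5 ± 144.5 in LKO ethanol livers (SD, n = 4 or, without library 2, 3). These bulk livers do not tell fewer cells of a type from less RNA per cell.

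**Figure D1:**
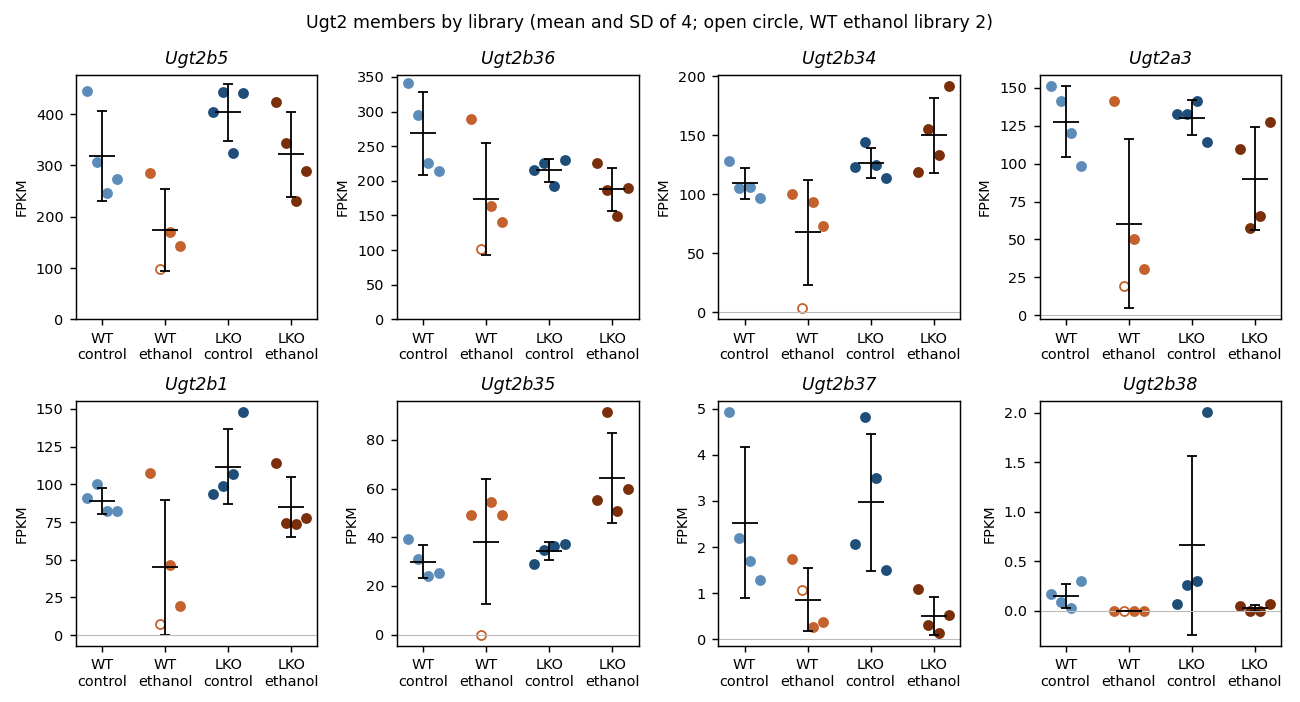
FPKM (linear axis) of each Ugt2 member in the 16 livers, with 1 point per library, the mean (bar) and SD (whiskers) of each group of 4, and WT ethanol library 2 as an open circle. Ugt2b35 sat at 49.1 to 91.5 FPKM in the other 7 ethanol libraries and at 24 to 39.3 FPKM in the 8 control diet libraries, while Ugt2b37 was above 1 FPKM in all 8 control diet libraries and in 3 of the 8 ethanol libraries.

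Differences between groups were tested with limma on log2(FPKM + 1) over the 11298 genes with at least 1 FPKM in at least 4 libraries, with Benjamini-Hochberg adjustment over all of them and a threshold of 0.05. Of the 8 members, 7 passed this filter and Ugt2b38 did not. Fold changes on this scale understate those of low genes such as Ugt2b37.

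With both genotypes averaged, 1 of the 7 tested members, Ugt2b37, was called between ethanol and control diet, and was lower on ethanol. Of all genes tested, 7.78% were called. Ugt2b37 passed the filter only through the control diet libraries, where it is high. Without WT ethanol library 2, 3 of 7 were called, Ugt2b37 and Ugt2a3 lower and Ugt2b35 higher, where 20.5% of all genes were called. The median difference of the 7 members was -0.64 with all libraries and -0.53 without that library, against 0.02 and 0.11 over all genes tested. In both fits 6 of the 7 differences were below 0, and the exception was the minor member Ugt2b35. At an unadjusted p under 0.05, limma marked 5 of the 7 in each fit, against 21.6% of all genes with all libraries and 33.9% without that library. The 5 were not the same. With all libraries they were Ugt2a3, Ugt2b1, Ugt2b5, Ugt2b36 and Ugt2b37, all lower. Without that library Ugt2b35, higher on ethanol, stood in place of Ugt2b36.

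Ugt2b37 encodes a close relative of the Ugt2b5 enzyme and was a trace transcript. In libraries 1 to 4 it had 4.93, 2.19, 1.69 and 1.29 FPKM in WT control livers, and 1.74, 1.07, 0.261 and 0.371 FPKM in WT ethanol livers. The LKO livers had 2.06, 4.81, 3.5 and 1.5 FPKM on control diet and 1.08, 0.3, 0.141 and 0.533 FPKM on ethanol. All 8 control diet libraries were above 1 FPKM, against 3 of the 8 ethanol libraries, so Ugt2b37 passed the filter only through the control diet. Without the filter, where 2.63% of all genes were called, it was also called averaged over genotypes. With at least 1 FPKM required in all libraries it was not tested. The diets did not overlap in LKO livers, nor did they for 12.3% of tested genes. Over all libraries 943 of its reads came from control diet and 197 from ethanol livers. The difference averaged over genotypes was -1.12 ± 0.235 (SE, log2, limma adjusted p = 0.00736), and -1.16 ± 0.246 (adjusted p = 0.00442) without WT ethanol library 2. Its mean on ethanol was 5.77-fold lower in LKO and 2.94-fold lower in WT livers. In LKO livers the difference was -1.35 in the fit over all libraries (adjusted p = 0.0992) and also -1.35 without WT ethanol library 2 (adjusted p = 0.0363), where the share of all genes called in LKO livers went from 0.425% to 3.67%. In WT livers it was -0.89 (adjusted p = 0.139), and -0.97 (adjusted p = 0.103) without library 2. Within libraries 1 and 2 it was -1.36 in LKO and -0.67 in WT livers, and within libraries 3 and 4 it was -1.34 and -0.92.

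Ugt2b35, a neighbour of Ugt2b36 on the opposite strand, was higher in 7 of the 8 ethanol livers. It had 39.3, 31, 24 and 25.5 FPKM in WT control libraries 1 to 4, and 49.1, 0, 54.5 and 49.3 FPKM in WT ethanol libraries. The LKO livers had 28.9, 34.7, 36.6 and 37.1 FPKM on control diet and 55.3, 91.5, 50.8 and 59.9 FPKM on ethanol. Every ethanol library except WT ethanol library 2 exceeded every control diet library, and that library held no read of the gene, which allows up to 0.173 FPKM (3 reads, counting error only). With all libraries the averaged difference was therefore 0.10 ± 0.622 (SE, log2, limma adjusted p = 0.952). Leaving it out gave 0.81 ± 0.145 (adjusted p = 0.00161), with 0.77 in WT livers (adjusted p = 0.0352) and 0.86 in LKO livers (adjusted p = 0.0272). The mean rose 1.87-fold in LKO and, without library 2, 1.7-fold in WT livers. Of all tested genes, 12.3% did not overlap between the diets in LKO livers, and 20.7% in WT livers without library 2. That share was not counted over both genotypes together. The difference was 0.48 (WT) and 1.14 (LKO) within libraries 1 and 2, where WT ethanol has 1 library left, and 1.04 and 0.57 within libraries 3 and 4.

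Ugt2a3 belongs to the other branch of the family, the Ugt2a enzymes. In libraries 1 to 4 it had 151.5, 141.4, 120.1 and 98.2 FPKM in WT control livers and 141.6, 19.2, 50.1 and 30.3 FPKM in WT ethanol livers. The LKO livers had 132.6, 132.9, 141.6 and 114.1 FPKM on control diet and 110, 57.8, 65.3 and 127.8 FPKM on ethanol. WT ethanol library 1 stayed among the control values, and both ethanol groups spread far more widely than the control groups. The averaged difference was -1.03 ± 0.317 (SE, log2, limma adjusted p = 0.0571), and -0.83 ± 0.269 (adjusted p = 0.0406) without WT ethanol library 2. Leaving out WT ethanol library 1 instead gave -1.30 (adjusted p = 0.00313), and without LKO ethanol library 4 it was -1.12 (adjusted p = 0.0458). Quantile normalization without WT ethanol library 2 ended the call (-0.87, adjusted p = 0.0527). Within libraries 1 and 2 the difference was -0.05 in WT and -0.73 in LKO livers, and within libraries 3 and 4 it was -1.45 and -0.47.

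**Figure D2:**
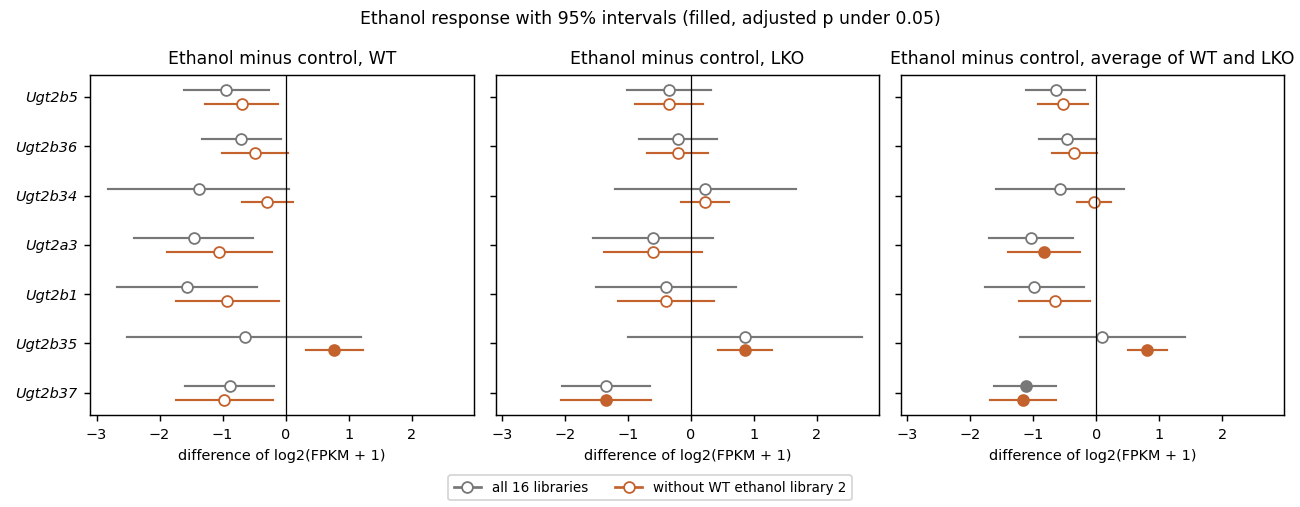
Difference between ethanol and control diet in log2(FPKM + 1), with 95% intervals from limma, for the 7 tested members in WT livers, in LKO livers and averaged, with all 16 libraries (grey) and without WT ethanol library 2 (orange); filled points had an adjusted p under 0.05. Ugt2b35 turned from -0.65 to 0.77 in WT livers when the library was left out, while Ugt2b37 was below 0 in all 3 panels.

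Ugt2b1, whose rat counterpart is known for conjugating the phenol bisphenol A, spread widely on ethanol in WT livers. WT control libraries 1 to 4 had 91.2, 100.5, 82.4 and 82 FPKM, and WT ethanol libraries 107.3, 7.15, 46.3 and 19.5 FPKM. LKO control livers had 93.3, 98.7, 106.6 and 148 FPKM and LKO ethanol livers 114.3, 74.2, 73.6 and 77.5 FPKM. WT ethanol library 1 was above the WT control range and the other 3 below it, and the LKO groups overlapped. The averaged difference was -0.98 ± 0.374 (SE, log2, limma adjusted p = 0.125), and -0.66 ± 0.261 without WT ethanol library 2 (adjusted p = 0.0871). It was not called in either fit. Leaving out WT ethanol library 1 instead called Ugt2b1 lower, where 9.74% of all genes were called. Within libraries 1 and 2 the difference was 0.16 in WT and -0.06 in LKO livers, and within libraries 3 and 4 it was -1.42 and -0.73.

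Ugt2b5 and Ugt2b36, the most abundant members, were also not called with all libraries or without WT ethanol library 2. Leaving out WT ethanol library 1 instead called both lower for averaged ethanol, where 9.74% of all genes were called. In libraries 1 to 4 Ugt2b5 had 444.7, 306.9, 246.2 and 273.7 FPKM in WT control livers and 284.5, 98.2, 169.3 and 142.1 FPKM in WT ethanol livers. LKO livers had 403.6, 443.1, 324.8 and 441.6 FPKM on control diet and 423.6, 343.5, 229.8 and 289.6 FPKM on ethanol. The diets overlapped in both genotypes, in WT livers through ethanol library 1 alone. The averaged ethanol difference of Ugt2b5 was -0.64 ± 0.225 (SE, log2, limma adjusted p = 0.0912), and -0.53 ± 0.186 (adjusted p = 0.0561) without WT ethanol library 2. With a term for the 2 sets of libraries, fitted without that library, it was -0.49 and was called (adjusted p = 0.00967), as were 32.7% of all genes. Within libraries 1 and 2 the difference was -0.38 in WT and -0.15 in LKO livers, and within libraries 3 and 4 it was -0.74 and -0.55.

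Ugt2b36 had 341.1, 294.9, 225.4 and 213.7 FPKM in WT control libraries 1 to 4 and 289.3, 101.8, 163.9 and 140.1 FPKM in WT ethanol libraries. LKO livers had 215.2, 225.3, 192.2 and 229.4 FPKM on control diet and 225.8, 186.3, 149.6 and 190.3 FPKM on ethanol. Its diets overlapped in both genotypes too. The averaged difference was -0.46 ± 0.209 (SE, log2, limma adjusted p = 0.212), and -0.35 ± 0.166 (adjusted p = 0.155) without WT ethanol library 2. It was -0.13 (WT) and -0.10 (LKO) within libraries 1 and 2, and -0.53 and -0.31 within libraries 3 and 4.

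Ugt2b34, at the low-coordinate end of the cluster, was not called for ethanol. WT control libraries 1 to 4 had 128.5, 104.9, 106.3 and 96.9 FPKM, and WT ethanol libraries 100.5, 3.45, 93.1 and 73.4 FPKM. LKO control livers had 123.1, 144.3, 124.5 and 114.1 FPKM and LKO ethanol livers 118.6, 155.5, 133.3 and 191.9 FPKM. Apart from WT ethanol library 2, which was more than an order of magnitude below the rest, the WT groups lay close together. The averaged difference was -0.58 ± 0.482 (SE, log2, limma adjusted p = 0.547), and -0.036 ± 0.13 (adjusted p = 0.881, 95% interval -0.31 to 0.24) without that library. Within libraries 1 and 2 it was -0.21 (WT) and 0.03 (LKO), and within libraries 3 and 4 -0.29 and 0.42.

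Ugt2b38 was near the limit of detection, with 148 reads in 16 libraries, 143 of them on control diet and 5 on ethanol. It had 0.166, 0.0887, 0.0217 and 0.304 FPKM in WT control libraries 1 to 4 and was listed at 0 in all 4 WT ethanol libraries. LKO livers had 0.0697, 0.264, 0.304 and 2.01 FPKM on control diet and 0.0494, 0, 0 and 0.0641 FPKM on ethanol. LKO control library 4 alone held 91 of its reads. The nearest libraries of the diets differed by 1 read against 0 in WT livers and held 3 reads each in LKO livers, so no separation or fold is read from this depth. In a fit without the filter its averaged difference was -0.38 (limma adjusted p = 0.292).

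Within each genotype, no member was called for ethanol in WT livers, where 4.18% of all genes were called, or in LKO livers, where 0.425% were. The unadjusted p of limma was under 0.05 for 5 of the 7 in WT and for 1, Ugt2b37, in LKO livers, against 19.7% and 9.19% of all genes. The 5 in WT livers were Ugt2a3, Ugt2b1, Ugt2b5, Ugt2b36 and Ugt2b37, all lower. Without WT ethanol library 2 the counts were 5 and 2, against 26.2% and 19.1%. In WT livers Ugt2b35, higher on ethanol, then stood in place of Ugt2b36, and in LKO livers Ugt2b35 joined Ugt2b37. Limma-voom on whole reads, with all libraries, called no member in either genotype. Leaving out WT ethanol library 2 gave Ugt2b35 in WT livers (9.27% of genes called) and Ugt2b35 and Ugt2b37 in LKO livers (3.67%). Leaving out WT ethanol library 1 instead called Ugt2a3, Ugt2b1, Ugt2b5 and Ugt2b36 in WT livers, all lower, where 8.28% of all genes were called. Among the 7 tested members, each overlapped between the diets in WT livers with all libraries, where 10.1% of tested genes did not, and Ugt2b35 alone did not overlap without library 2 (20.7%). In LKO livers Ugt2b35 and Ugt2b37 did not overlap (12.3%).

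**Figure D3:**
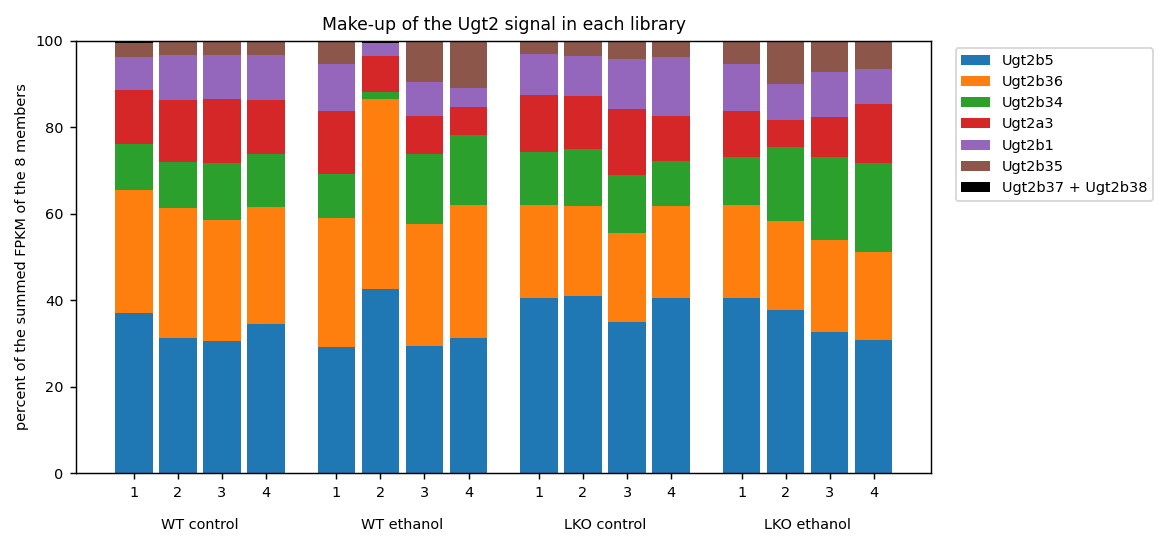
Share of the summed FPKM of the 8 members (percent, stacked to 100) taken by each member in each library, grouped by genotype and diet. Ugt2b36 (orange) took 27 to 30.8% in 7 WT libraries and 20.3 to 21.5% in the 8 LKO libraries, and Ugt2b35 (brown) widened on ethanol in every library but WT ethanol library 2, where it was 0.

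The make-up of the family signal differed by diet in 1 member and by genotype in another. Ugt2b35 took 2.9 to 3.94% of the summed FPKM in the 8 control diet libraries and 5.04 to 10.8% in the 7 ethanol libraries other than WT ethanol library 2, without overlap. Ugt2b36 took 28.9 ± 1.32% (SD, n = 7) in WT livers without that library and 21 ± 0.473% (n = 8) in LKO livers, again without overlap. WT ethanol library 2 itself lay at 44.1%, higher still. Shares of a sum move against each other and these were chosen after their values were seen, so they are given as a description with no test.

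The ratio of Ugt2b36 to Ugt2b5 FPKM shows the same values in another form. This pair was also chosen after the values were seen, and the ratio reuses them, so it is a description and no further support. In WT libraries 1 to 4 it was 0.767, 0.961, 0.916 and 0.781 on control diet and 1.02, 1.04, 0.968 and 0.986 on ethanol. In LKO livers it was 0.533, 0.508, 0.592 and 0.519 on control diet and 0.533, 0.542, 0.651 and 0.657 on ethanol. All 8 WT livers, WT ethanol library 2 included, lay above all 8 LKO livers, which fixes the same order within each of the 2 sets of libraries. The ratio was 0.929 ± 0.102 (SD, n = 8) in WT livers, 0.914 ± 0.1 (n = 7) without WT ethanol library 2, and 0.567 ± 0.0591 (n = 8) in LKO livers. Outside WT ethanol library 2 it rested on 5269 to 13282 reads of Ugt2b36 and 5260 to 19798 reads of Ugt2b5. Neither gene alone was called between genotypes.

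**Figure D4:**
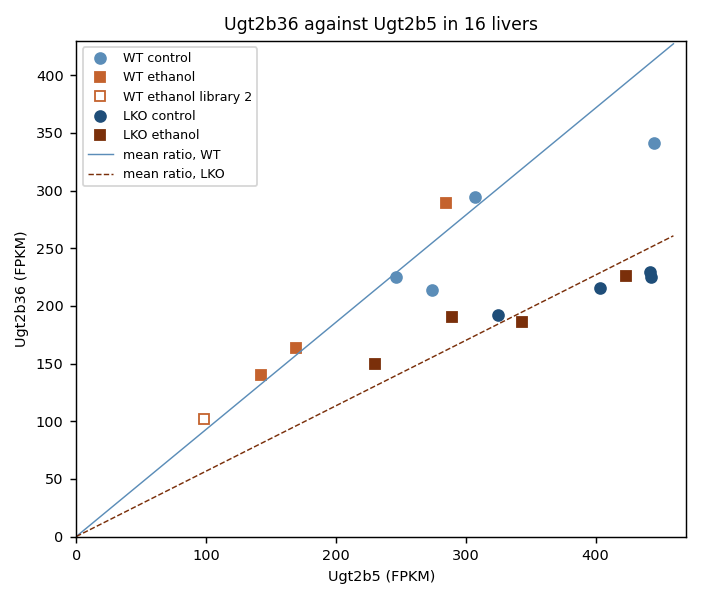
Ugt2b36 FPKM against Ugt2b5 FPKM in the 16 livers (linear axes), with lines through 0 at the mean ratio of the 8 WT livers (0.929, solid) and of the 8 LKO livers (0.567, dashed). All LKO livers lie below all WT livers in ratio, from 0.508 to 0.657 against 0.767 to 1.04, on both diets.

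Between genotypes no member was called, with or without WT ethanol library 2. On control diet 0.00885% of all genes were called, on ethanol 0.0797%, and averaged over diets 0.142%, and without that library 0.0358%, 0.206% and 0.859%. The unadjusted p of limma was under 0.05 for 0 of the 7 on control diet, for 3 on ethanol (Ugt2b1, Ugt2b34 and Ugt2b5) and for 2 averaged over diets (Ugt2b1 and Ugt2b5), against 3.45%, 11.9% and 10.4% of all genes. Without WT ethanol library 2 it was 0, 3 and, with Ugt2b34 added, 3, against 9.6%, 16.9% and 22.6%. Limma-voom on whole reads called no member. On control diet every member overlapped between genotypes, where 9.25% of genes did not, and Ugt2a3 was nearly level at 0.043 (log2, 95% interval -0.90 to 0.99). The differences of Ugt2b36 (-0.29) and Ugt2b5 (0.37) had opposite signs. On ethanol Ugt2b34 was higher in all 4 LKO than in all 4 WT livers, and this held with and without WT ethanol library 2 (2.69% and 7.03% of genes did not overlap, in either direction). Its mean was 2.22-fold higher with that library (log2 difference 1.82 ± 0.682, SE, limma adjusted p = 0.323) and 1.68-fold higher without it (0.73 ± 0.191, adjusted p = 0.13). Within libraries 3 and 4 the difference was 0.94, and within libraries 1 and 2, with 1 WT library left, 0.43.

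Ugt2b5 was 0.96 ± 0.319 higher in LKO than in WT livers on ethanol (SE, log2, limma adjusted p = 0.278), and 0.72 ± 0.272 (adjusted p = 0.225) without WT ethanol library 2. Averaged over diets it was 0.66 ± 0.225 higher (adjusted p = 0.326), and 0.55 ± 0.186 (adjusted p = 0.127) without that library. Ugt2b34 averaged over diets was 1.01 ± 0.482 higher (adjusted p = 0.482), and 0.47 ± 0.13 (adjusted p = 0.0839) without it. With the term for the 2 sets of libraries, fitted without that library, Ugt2b5 (0.50, adjusted p = 0.0301) and Ugt2b34 (0.47, adjusted p = 0.0301) were called averaged over diets, where 11.1% of all genes were called. Ugt2b1 was 0.89 ± 0.374 higher in LKO livers averaged over diets (adjusted p = 0.428), and 0.57 ± 0.261 (adjusted p = 0.213) without WT ethanol library 2. Leaving out WT ethanol library 1 called Ugt2a3, Ugt2b1 and Ugt2b5 between genotypes on ethanol, where 3.47% of all genes were called. On ethanol the genotype difference of Ugt2a3 was -0.82 within libraries 1 and 2, where WT has 1 library left, and 1.21 within libraries 3 and 4. That of Ugt2b1 was -0.22 and 1.30, so both changed sign between the sets, while that of Ugt2b5 was 0.42 and 0.73. On control diet Ugt2b5 was 0.19 and 0.54.

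The interaction, which asks whether the ethanol response differed between genotypes, was not called for any member, nor for any of the 11298 genes (0% called by limma, with 362 genes (3.2%) and 0 members at an unadjusted p under 0.05, and 0 members called by limma-voom). The largest estimates were 1.60 for Ugt2b34 and 1.51 for Ugt2b35 with all libraries, and without WT ethanol library 2 they fell to 0.52 (95% interval -0.03 to 1.07) and 0.085 (-0.53 to 0.70). For Ugt2b37 the interaction was -0.46 (-1.45 to 0.54). A difference between the genotypes in the ethanol response of these members was not detected. Over all genes, 506 were called for the interaction with array weights and 6 without WT ethanol library 1, with no member among them.

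Correlations between members were mostly positive. Over the 15 libraries other than WT ethanol library 2, Pearson's r of log2(FPKM + 1) was 0.85 between Ugt2a3 and Ugt2b1 and 0.84 between Ugt2b1 and Ugt2b5. After removing group means it was 0.94 between Ugt2b5 and Ugt2b36, against 0.65 before. Over these libraries, with the diet difference included, r of Ugt2b35 was -0.59 with Ugt2b37, -0.48 with Ugt2a3, -0.37 with Ugt2b36, -0.26 with Ugt2b1, -0.15 with Ugt2b5 and 0.32 with Ugt2b34. After removing group means the same values were 0.27, -0.08, 0.31, 0.04, 0.40 and 0.39, so the negative sign was left with Ugt2a3 alone. These points share libraries, groups and scaling, and the correlations are descriptions.

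Outside the Ugt families, the genes whose pattern over the same 15 libraries was most like that of Ugt2a3 were Car3 (r = 0.950), Ces1e (0.933) and Akr1c6 (0.920). Car3 encodes a cytosolic carbonic anhydrase abundant in male rodent liver, and Ces1e a carboxylesterase. Those nearest Ugt2b1 were Sult2a8 (0.930), a sulfotransferase, Mup3 (0.929), a major urinary protein, and again Car3 (0.925). Ugt2b35 was most like Eif4e (0.936), the cap-binding translation factor, Trmt61a (0.918) and Ero1l (0.917), an oxidase of the endoplasmic reticulum. Ugt2b37 was most like Cyp2c68 (0.904), a cytochrome P450, Lipc (0.897), hepatic lipase, and Nfyb (0.883). For Ugt2b36 they were Fggy (0.918), Sugct (0.909) and Rdh16 (0.895), a retinol dehydrogenase. Ugt2b5 was most like Fitm1 (0.911), Apoe (0.901) and Igkc (0.891), an immunoglobulin light chain segment made by plasma cells. Ugt2b34 had no such close neighbour, with D630033O11Rik (0.751), Ankrd2 (0.738) and Hdhd3 (0.730) at the top.

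The other genes of glucuronidation were described by lists, again for ethanol averaged over genotypes. Of 13 other UDP-glucuronosyltransferases, 12 were analysed here and 7 passed the filter. With all libraries 3 of the 7 were called (7.78% of all genes were), all lower: Ugt3a1 (-1.85, limma adjusted p = 0.0153), Ugt1a5 (-1.77, 0.021) and Ugt1a6a (-0.73, 0.0446). Without WT ethanol library 2, where 20.5% of all genes were called, 4 were lower and 1 higher, with a list median of -0.44 against 0.11 over all genes. The one higher, Ugt1a9, named after its values were seen, was 13.9 and 8.53 FPKM in WT and LKO control livers and 36.8 and 28.3 FPKM in WT (without library 2) and LKO ethanol livers (1.46 ± 0.18, adjusted p = 0.000147). With that library, in which it was listed at 0, it was not called (0.81, adjusted p = 0.469). The Ugt1a genes share their last exons, and how reads there were assigned is not given in the sources used here.

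Among 8 genes that supply or use UDP-glucuronic acid, 7 were tested. With all libraries 3 were called, and 4 without WT ethanol library 2, against 7.78% and 20.5% of all genes. Rgn, a lactonase of ascorbate synthesis, fell by 2.09 (limma adjusted p = 0.0063), and Gulo, the last enzyme of ascorbate synthesis, fell by 1.12 (0.0122). Gusb, the lysosomal beta-glucuronidase that splits glucuronides, rose by 0.68 (0.0445). Ugdh, which makes UDP-glucuronic acid and was also named after its values were seen, was called without WT ethanol library 2 (0.93, adjusted p = 0.0307) and not with it (0.64, adjusted p = 0.346).

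Of 12 transcription regulators known to act on Ugt genes, all tested, 1 was called with all libraries and 2 without WT ethanol library 2, again against 7.78% and 20.5% of all genes. Ppara was lower (-1.22, limma adjusted p = 0.0294). Nr1i2, encoding the xenobiotic receptor PXR, was -0.48 (adjusted p = 0.102) with all libraries and -0.43 (0.0436) without WT ethanol library 2, and Cebpa was -0.62 (0.106) and -0.49 (0.0668). Of the 4 efflux pumps of glucuronides, Abcc4 rose by 1.48 (adjusted p = 0.00641). Abcc3, the pump of the basolateral membrane, was 0.77 (0.187) with all libraries and 1.08 (0.00185) without library 2, and Abcg2 was -0.31 (0.482). Between genotypes averaged over diets no gene of these 4 lists was called with all libraries, where 0.142% of all genes were. With the term for the 2 sets of libraries, fitted without WT ethanol library 2, 11.1% of all genes were called. Ugt1a5 was then called higher in LKO livers, and Arnt, Nr1i2 and Abcg2 lower.

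**Figure D5:**
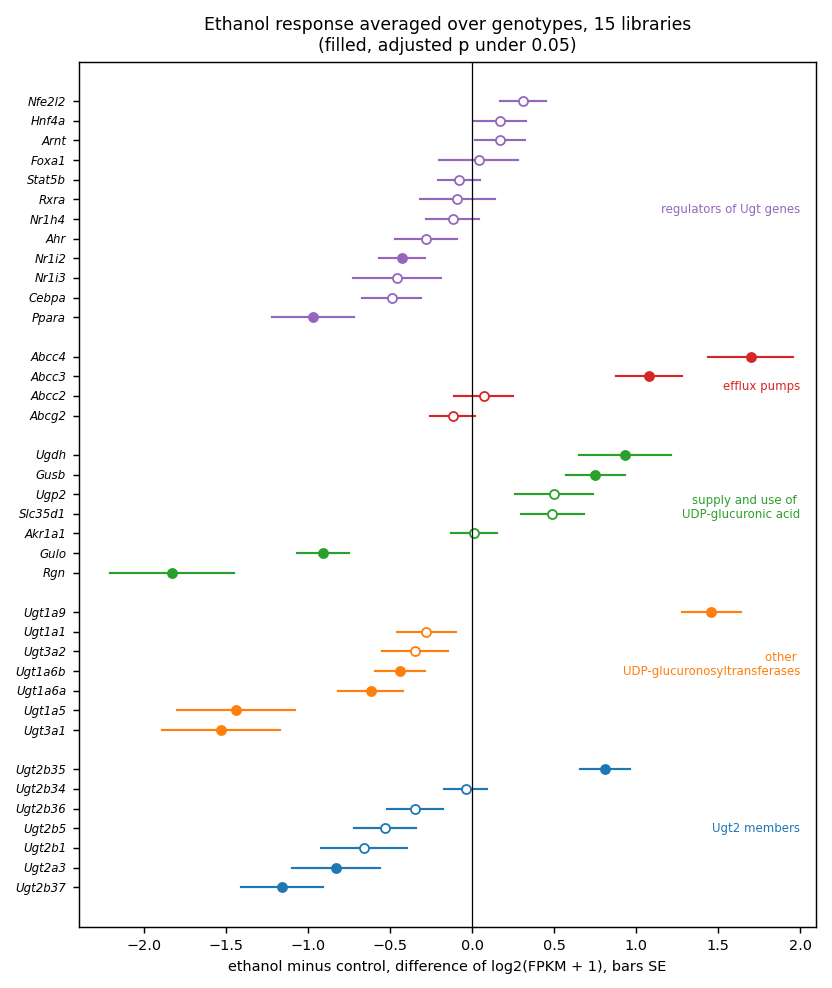
Ethanol response averaged over genotypes, as differences of log2(FPKM + 1) with SE bars, for the 7 tested Ugt2 members and 4 related lists, over the 15 libraries other than WT ethanol library 2; filled points had an adjusted p under 0.05. Of the filled points, Ugt2b35, Ugt1a9, Ugdh, Gusb, Abcc3 and Abcc4 lie to the right, and Ugt2b37, Ugt2a3, Ugt3a1, Ugt1a5, Ugt1a6a, Ugt1a6b, Rgn, Gulo, Ppara and Nr1i2 to the left.

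Some cell type markers differed between the diets too. Of 6 hepatocyte markers, averaged over genotypes, 1 was called lower on ethanol with all libraries (Cyp2e1; 7.78% of all genes were called) and 3 without WT ethanol library 2 (Asgr1, Cyp2e1 and Ttr; 20.5%). The list median was -0.45 and -0.32. The summed FPKM of the 6 ran from 62890 to 74590 in WT control, 58370 to 74170 in LKO control and 55510 to 70790 in LKO ethanol libraries. In WT ethanol livers it was 42070 to 71720 in 3 libraries and 62590 in library 2, of which Apoa1 made up 34500 FPKM. The diets overlapped in these sums. Of markers of other liver cells, Lyve1 of sinusoidal endothelium (1.75, limma adjusted p = 0.0208), Sox9 of cholangiocytes (0.79, 0.016) and Des of stellate cells (0.57, 0.0379) were called higher on ethanol with all libraries. They were 1 of 5, 1 of 2 and 1 of 5 tested markers of their lists, and the lists did not move as 1: of the 5 endothelial markers 3 were below 0 (Clec4g -1.06, Kdr -0.46 and Stab2 -0.33, none called), with a list median of -0.33. Of the 5 stellate cell markers, Colec11 (-0.57) and Reln (-0.07) were below 0, neither called, with a list median of 0.00. Spp1, the other tested cholangiocyte marker, was -0.36 and not called. Without WT ethanol library 2, Lyve1, Sox9 and Des stayed called. Marco of Kupffer cells (1.0, 0.0336), Pecam1 of endothelium (0.63, 0.0424) and Apoa4, on the enterocyte list (2.58, 0.00055), were added as higher. The other 5 Kupffer cell markers were below 0 (list median -0.22), as were 3 of the 5 endothelial ones (list median -0.26), none of them called. Spp1 of cholangiocytes (-0.64, 0.0128) and Alas2 of erythroid cells (-0.79, 0.0434) were called lower. Of the 5 erythroid markers 3 were above 0 (Hba-a1 0.10, Hba-a2 0.28 and Hbb-bs 0.14, none called), with a list median of 0.10. Fabp2, the other tested marker of the enterocyte list, was -0.24 and not called. Outside that library the summed FPKM overlapped between control diet and ethanol, at 28.2 to 83.5 against 34.6 to 87.4 for the endothelial, 47.9 to 150.1 against 97.5 to 167 for the stellate and 86.1 to 305.6 against 51.9 to 298.1 for the Kupffer cell list. The part of these markers in the Ugt2 differences was not tested. Pancreatic acinar markers summed to at most 1.45 FPKM in any library.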

How the data were processed

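RNA of 16 livers (4 groups of 4) was sequenced. The authors deposited 1 table of FPKM per gene and library. Per the submitters' processing notes, build mm10, fastp, STAR 2.6.1, HTSeq and DESeq2 were used, with no roles or order; annotation and strand setting are not given in the sources used here. FPKM of low genes were whole multiples of 1 read: where 4 or more libraries had a value above 0 (20520 genes), 100% came within 0.1 of whole reads, which gave totals and reads per gene. PCR duplicates are unknown, so limits from reads cover counting error only.

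Values were analysed as log2(FPKM + 1) with limma 3.58.1 in R 4.3.3 (group means over all 16 libraries, eBayes with trend, two-sided, Benjamini-Hochberg over 11298 genes with at least 1 FPKM in at least 4 libraries), after a test on simulated data. Nothing in the labels says the livers of a group came from separate animals, so p-values measure the spread between these samples. Alternatives covered pseudocount, filter, scaling, weights, samples in the fit, the 2 sets of libraries and each library left out. Limma-voom on whole reads and quantile normalization without WT ethanol library 2 were added after seeing the data. Members and lists were chosen with earlier results of these data known. Named by rule were Zfp36l1, all members, the 3 genes of each related list with the smallest adjusted p for averaged ethanol, and the 3 genes outside the Ugt families with the highest r to each tested member. GENCODE M21 (GRCm38) gave transcripts, and RefSeq (GRCm38.p6) promoters, matched by symbol for 8 of 8 members. Markers of cholangiocytes, Kupffer cells and enterocytes were also summed (closing section). One further regulator is not reported here.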

Additional observations from a re-analysis of the deposited data

Results flagged for a closer look

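In 36 groups of 4 values (8 members and their sum, 4 groups each), a library was marked when its gap to the nearest other exceeded Dixon's 95% critical share of the group's range, which chance gives in about 1 of 20 groups. There were 3 such values. Ugt2b35 was 0 FPKM in WT ethanol library 2 against 49.1 to 54.5 FPKM in the other 3. Ugt2b1 was 114.3 FPKM in LKO ethanol library 1 against 73.6 to 77.5 FPKM. Ugt2b38 was 2.01 FPKM in LKO control library 4 against 0.0697 to 0.304 FPKM. That library's value for Ugt2b37, its close copy, was 1.5 FPKM, the lowest of its group.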

How the results depend on the processing

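Over up to 14 settings other than leaving out single libraries, 561 member differences were recomputed: 508 kept their direction and side of the threshold, 34 kept direction and became called, 0 lost a call and 19 changed sign. Among these differences Ugt2b37 for averaged ethanol alone was called at first, so a call could be lost only in its 12 settings. The setting in which it was not tested is not among them. No paired analysis was made, because no number in the sample titles is shared by libraries of different groups. In 5 cases a control diet title is followed by the next number in an ethanol title of the same genotype, but nothing in the labels says what adjacent numbers mark, and no pairs were made from them. Shares of all genes called in the same fit stand in brackets. The term for the 2 sets of libraries was fitted without WT ethanol library 2, so values with the term carry both changes; leaving out that library alone gave 3 members averaged (20.5%), 1 in WT (9.27%) and 2 in LKO livers (3.67%) for ethanol, and 0 between genotypes averaged over diets (0.859%). The averaged ethanol count of 1 member (Ugt2b37) became 0 (6.99%) with at least 1 FPKM required in all libraries, where Ugt2b37 was not tested. It became 2 with upper quartile, median-of-ratios and quantile scaling, all adding Ugt2a3 (11.6, 11.7 and 12.9%), 6 with array weights (36.7%; weight 0.0418 for WT ethanol library 2), 4 with the term for the 2 sets (32.7%), and 2 with quantile normalization without that library (20%). In WT livers the ethanol count of 0 became 1 with quantile normalization (8.25%), 6 with array weights (38.4%) and 2 with the term (19.7%). In LKO livers it became 1 with array weights (7.69%) or only the 2 groups compared (2.5%), and 2 with the term (10.8%) or with quantile normalization without WT ethanol library 2 (4.48%). Between genotypes the count of 0 became 4 on ethanol (30.7%) and 3 averaged over diets (34.1%) with array weights, and 2 averaged with the term (11.1%). The causes of these changes were not tested.

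Leaving out each library in turn gave ethanol counts of 0 to 4 in WT, 0 to 2 in LKO and 1 to 5 averaged, genotype counts of 0 to 3 on ethanol, and 0 in all fits on control diet, averaged over diets and for the interaction. The averaged 5, without WT ethanol library 1 (9.74%), were Ugt2a3, Ugt2b1, Ugt2b5, Ugt2b36 and Ugt2b37. Summed FPKM ran from 859.8 to 996.4 (WT control), 421.1 to 668.8 (WT ethanol), 1004 to 1057 (LKO control) and 849.7 to 965.1 (LKO ethanol), and the LKO control sum was 1109 with median of ratios.

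Sign changes were these. Ugt2b35 on ethanol in WT livers, 0.77 once WT ethanol library 2 was left out, was also 0.80 with the term and 0.63 with quantile normalization, both without that library, and 0.74 with array weights, which gave it little weight. Averaged, it became -0.29 with a pseudocount of 0.1, -0.012 with upper quartile, -0.025 with median of ratios and -0.35 with voom. The rest were differences near 0 between genotypes. Ugt2a3 on control diet became -0.0032 and -0.015 with equal sums (all genes and without mitochondrial genes), and -0.022 with quantile normalization with or without library 2. Ugt2b36, -0.015 on ethanol without library 2 alone, became -0.083 (term) and -0.018 (quantile), both without it, and 0.09 (median of ratios) averaged. Ugt2b37 became 0.17 (array weights) on ethanol, and averaged 0.002 (pseudocount 5), 0.0062 (median of ratios), 0.21 (array weights) and 0.10 (quantile without library 2). With single libraries left out, ranges that crossed 0 were -1.16 to 0.77 (Ugt2b35, ethanol in WT), -0.15 to 0.81 (Ugt2b35, ethanol averaged), -0.077 to 0.13 (Ugt2a3, control diet), -0.015 to 0.48 and -0.15 to 0.10 (Ugt2b36, ethanol and averaged), and -0.014 to 0.48 and -0.14 to 0.11 (Ugt2b37, control diet and averaged).

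Median-of-ratios scaling moved the median genotype difference of all genes from -0.083 to 0.0329 averaged over diets, and quantile normalization without library 2 moved the averaged ethanol median from 0.112 to -0.00182. Depth limits Ugt2b37 (1140 reads in all) and Ugt2b38 (148 reads).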

Other observations

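WT ethanol library 2 lacked several transcripts of glucuronidation that every other library held. Its hepatocyte markers were uneven: Apoa1 was 34500 FPKM against at most 10830 elsewhere, whereas Alb (23000 against at least 27580), Asgr1 (74.5 against at least 285.8) and Tat (116.6 against at least 273) lay below every other library. Of the tested UDP-glucuronosyltransferases outside the Ugt2 members, Ugt1a1 (7.39 to 18 FPKM elsewhere), Ugt1a5 (2.83 to 55.3), Ugt1a6b (3.62 to 9.97), Ugt1a9 (6.38 to 46.3) and Ugt3a1 (1.54 to 35.5) were listed at 0 in it, and Ugt3a2 was 1.04 against 73.2 to 244.1 FPKM. Within the Ugt2 cluster the same library had 1901 reads of Ugt2b36 and 1805 of Ugt2b5, but 147 of Ugt2b34 and 0 of Ugt2b35, which lies between Ugt2b1 (182 reads) and Ugt2b36. The causes were not tested.

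Other cell type markers gave these sums. Cholangiocyte markers summed to 75 FPKM in WT ethanol library 2 and to 10.8 to 28.6 in the other libraries, and Kupffer cell markers to 93.2 and 51.9 to 305.6. Enterocyte markers, of which Apoa4 is also made by mouse liver, summed to 113.7 in that library, to 130.6 to 400.2 in the control diet libraries and to 319.5 to 2871 in the other ethanol libraries.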
